A study of Homo sapiens with 44 samples.

Results

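This account covers dexamethasone added to tumour necrosis factor (TNF) in A549 cells that carried a control small interfering RNA. The comparison rests on 6 of the 44 samples of the series: 3 samples that received both agents and 3 that received TNF alone. A549 is an established human lung adenocarcinoma line, and dexamethasone (dex) is a synthetic glucocorticoid. All 6 samples were transfected with 20 nM of a non-targeting control (siNON) for 72 h in medium with charcoal-stripped serum, which lacks steroids, and all received 10 ng/ml TNF for the last 6 h. The DT cells received 100 nM dex together with that TNF, and the TNF cells received TNF with no dex, so that the 2 groups differ in dex only. For context, values are also given for siNON cells with 6 h of 100 nM dex alone (dex cells) and with the ethanol vehicle (vehicle cells), and for cells with an siRNA against IRF2BP2, a transcriptional cofactor whose knockdown the series was built around, under DT, TNF and vehicle. Each of these other groups also has 3 samples. One dose, one time and a single tumour line were measured.

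TNF binds its receptor on the cell surface and, through a kinase cascade, frees NF-kB dimers from their inhibitory IkB proteins. The dimers then enter the nucleus and switch on genes of chemokines, cytokines, adhesion molecules and, among others, genes whose products shut the pathway off again. Glucocorticoids bind the glucocorticoid receptor, a transcription factor encoded by NR3C1, which raises many genes directly at its response elements and is known for lowering inflammatory genes driven by NF-kB and AP-1. Airway epithelial cells are a main target of inhaled glucocorticoids, and A549 is widely used as a model of them.

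The table of A549 cells lists 48118 transcripts of 25689 gene symbols on build hg19, and the transcript with the most reads stood for each symbol. Each level below is 1 value for the 3 replicates of a group together, as the authors deposited it, with no spread of its own, and whether the replicates of the 2 groups overlapped was not analysed here. The pooled columns rest on 48.9 M tags for DT cells and 43.3 M tags for TNF cells, and on 56.9 M tags each for dex and vehicle cells. Levels are given as reads per 1 M tags (CPM), which is the deposited FPKM times the listed length, and they compare groups within a gene, not genes with each other. Fold changes and false discovery rates (FDR) are those of the authors' deposited table, and a gene is called where that FDR is under 0.05. Nothing in the labels says whether the replicates came from separate cultures, so the FDR may rest on technical spread alone. Calls were counted over the 14523 symbols with a mean of at least 0.5 CPM over the 8 A549 columns. The reads on transcripts came to 234% of the tags in DT and in TNF cells, since overlapping transcripts share reads, and genes that share reads are named as such. Markers of A549 cells and lung epithelium summed to 27305 CPM in DT cells, against 26019 CPM in TNF cells, with the keratins KRT8 and KRT18 and the enzymes AKR1B10 and ALDH1A1 leading. The surfactant genes SFTPA1, SFTPB and SFTPC and the lung factor NKX2-1 stayed under 0.5 CPM in both groups, while SFTPD, another surfactant gene of the list, had 2.94 CPM in DT cells, against 0.273 CPM in TNF cells. Of 18 markers of blood, endothelial and fibroblast cells, 6 were listed at 0 in DT cells and 7 in TNF cells, and their sum was 70.1 CPM in DT cells, against 93.8 CPM in TNF cells. In bulk RNA, fewer cells of a kind and less RNA per cell cannot be told apart.

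Dex added to TNF raised 1508 genes (10.4% of those counted) and lowered 1204 (8.29%), 18.7% in all. By at least 1 on the log2 scale, 387 genes rose (2.66%) and 208 fell (1.43%), together 4.1%. Among genes with at least 5 CPM in the higher group, the 3 largest falls were those of the endothelial adhesion molecule VCAM1, the cytokine subunit IL23A and the cytokine IL11, and the largest rise was that of SCNN1G, a subunit of the epithelial sodium channel. FKBP5, a chaperone of the glucocorticoid receptor that is a standard marker of its activity, was among the 5 largest rises.

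Of the 15 largest rises among genes with at least 5 CPM in the higher group, SCNN1G came first. It had 18.1 CPM in DT cells, against 0.376 CPM in TNF cells, and the authors' deposited table lists a log2 fold change of 5.52, FDR 8.21e-97. The gene lies at chr16:23194040-23228200, + strand on hg19, as the deposited file gives it. PRR15L had 9.28 CPM in DT cells, against 0.207 CPM in TNF cells (log2 fold change 5.34, FDR 3.42e-40 in the authors' deposited table), with only 9 reads behind the TNF value. JPH2, a junctophilin that ties the plasma membrane to internal calcium stores, had 21.4 CPM in DT cells, against 0.683 CPM in TNF cells (log2 fold change 4.87, FDR 1.06e-137 in the authors' deposited table). TFCP2L1, a grainyhead-family transcription factor, had 129 CPM in DT cells, against 6.24 CPM in TNF cells (log2 fold change 4.35, FDR 2.06e-225 in the authors' deposited table). FKBP5 had 335 CPM in DT cells, against 16.6 CPM in TNF cells, a log2 fold change of 4.32 with its FDR listed as 0 in the authors' deposited table. These 5 genes were low with TNF alone, and in 3 of them the level with both agents lay under that with dex alone: FKBP5 had 354 CPM in dex cells, TFCP2L1 had 154 CPM and PRR15L had 13.8 CPM. On the log2 scale of the authors' deposited table, TNF over vehicle was -3.74 (FDR 5.99e-21) for PRR15L and -1.67 (FDR 5.31e-08) for JPH2. For SCNN1G it was 4.07 (FDR 6.86e-04), and FKBP5 was not called. That comparison shares the TNF samples. Dex over vehicle was 2.18 for PRR15L and 2.53 for JPH2 on the same scale. The other 10 large rises ran between 3.40 and 4.11 on the log2 scale in the authors' deposited table. Among them were SAA1, FAM105A, STAC2, TNFAIP8L3, ATOH8, ANGPTL4, ADAMTS15, SFRP5 and IRAK3.

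Of the 15 largest falls, VCAM1 had 0.427 CPM in DT cells, against 6.09 CPM in TNF cells, and the authors' deposited table lists a log2 fold change of -3.81, FDR 3.12e-48. VCAM1 binds leukocyte integrins and lies at chr1:101185196-101204601, + strand on hg19. IL23A, which encodes the p19 subunit of interleukin 23, had 0.92 CPM in DT cells, against 12.3 CPM in TNF cells (log2 fold change -3.71, FDR 5.63e-70 in the authors' deposited table). IL11, a cytokine of the interleukin 6 family, had 2.72 CPM in DT cells, against 29.8 CPM in TNF cells (log2 fold change -3.45, FDR 2.99e-83 in the authors' deposited table). These genes stood differently without TNF. VCAM1 and IL23A were all but silent there, with 0.0776 and 0.176 CPM in vehicle cells, whereas IL11 had 30.6 CPM in vehicle cells and 5.49 CPM in dex cells. RASSF10, a RAS-association domain protein, had 1.1 CPM in DT cells, against 9.61 CPM in TNF cells (log2 fold change -3.11, FDR 1.41e-51 in the authors' deposited table), and like IL11 it was present without TNF, at 1.02 CPM in dex cells and 15.5 CPM in vehicle cells. The other 11 were OAS2, OASL, LTB, FST, MX1, OLR1, NAV3, TNFSF15, C6orf141, BCL2A1 and TNFRSF11B, with log2 fold changes between -3.08 and -2.26 in the authors' deposited table.

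Chemokines, the small secreted proteins that draw leukocytes to a tissue, fell almost as a group: 11 of the 16 in the list were counted, 10 fell and none rose, and their median log2 fold change was -1.08, against 0.01 over all genes counted. CXCL8, the neutrophil attractant also called interleukin 8, had 676 CPM in DT cells, against 1436 CPM in TNF cells (log2 fold change -1.04, FDR 5.25e-05 in the authors' deposited table). CCL2, which draws monocytes, had 68.2 CPM in DT cells, against 268 CPM in TNF cells (log2 fold change -1.96, FDR 1.54e-90 in the authors' deposited table). In both genes DT cells still stood far above the groups without TNF, since CXCL8 had 34.5 CPM in dex cells, against 98.2 CPM in vehicle cells, and CCL2 had 4.45 CPM in dex cells, against 14.8 CPM in vehicle cells. The CXC chemokines CXCL1 and CXCL3 lie beside CXCL8 in the genome and attract neutrophils as well. CXCL1 had 101 CPM in DT cells, against 316 CPM in TNF cells (log2 fold change -1.59, FDR 1.58e-23 in the authors' deposited table). CXCL3 had 25.4 CPM in DT cells, against 104 CPM in TNF cells (log2 fold change -1.97, FDR 7.59e-24 in the authors' deposited table). CXCL5, of the same family, fell to 1405 CPM in DT cells, against 3144 CPM in TNF cells. Lower-expressed CCL5 and CX3CL1 fell by 1.83 and 1.08 on the log2 scale in the authors' deposited table. CXCL2 and CCL20 fell by 0.77 and 0.68 log2 units in the authors' deposited table, and CCL20, the attractant of CCR6-bearing cells, had 123 CPM in DT cells, against 206 CPM in TNF cells. CXCL16 fell by 0.29 log2 units in the authors' deposited table and shares reads with MED11. The exception was CXCL10, an interferon-type chemokine, at 1.23 CPM in DT cells, against 1.39 CPM in TNF cells (log2 fold change -0.17, FDR 1 in the authors' deposited table).

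Cytokines and growth factors showed a similar tilt with more exceptions. Of 23 in the list 18 were counted, 12 fell and 3 rose, with a median of -1.03. Beside IL23A and IL11, the interleukin 6 gene had 4.9 CPM in DT cells, against 16.2 CPM in TNF cells (log2 fold change -1.72, FDR 1.02e-23 in the authors' deposited table), and interleukin 1 alpha had 0.861 CPM in DT cells, against 2.69 CPM in TNF cells (log2 fold change -1.64, FDR 1.01e-08 in the authors' deposited table). IL1B had 2.18 CPM in DT cells, against 4.34 CPM in TNF cells (log2 fold change -0.99, FDR 5.78e-06 in the authors' deposited table). The TNF family members TNFSF15 and LTB fell as well. TNFSF15, a ligand of the death-domain receptor DR3, had 8.32 CPM in DT cells, against 40.6 CPM in TNF cells (log2 fold change -2.30, FDR 1.01e-84 in the authors' deposited table). LTB, lymphotoxin beta, had 5.45 CPM in DT cells, against 34.1 CPM in TNF cells (log2 fold change -2.62, FDR 7.84e-90 in the authors' deposited table). The TNF gene itself had 0.776 CPM in DT cells, against 3.28 CPM in TNF cells (log2 fold change -2.07, FDR 4.04e-14 in the authors' deposited table). LTB and TNF are each listed with 8 copies in the authors' deposited table, between which reads may be split. This is a count in the listing and was not read as a number of genes. LIF, a cytokine of the interleukin 6 family, had 97.3 CPM in DT cells, against 207 CPM in TNF cells (log2 fold change -1.07, FDR 1.33e-27 in the authors' deposited table). EBI3, CSF3 and IL15 ran the other way. EBI3, a subunit of interleukins 27 and 35, had 23.2 CPM in DT cells, against 11.8 CPM in TNF cells (log2 fold change 0.99, FDR 2.56e-10 in the authors' deposited table). CSF3, granulocyte colony stimulating factor, had 1.49 CPM in DT cells, against 0.579 CPM in TNF cells (log2 fold change 1.39, FDR 0.00146 in the authors' deposited table), on 73 reads in DT cells and 25 in TNF cells. IL15, which sustains natural killer cells, rose by 0.35 log2 units (FDR 0.0291) in the authors' deposited table. IL32, an inflammatory cytokine that stood at 4.17 CPM in vehicle cells, had 90.4 CPM in DT cells, against 86.4 CPM in TNF cells and passed no threshold (log2 fold change 0.07, FDR 0.958 in the authors' deposited table), and neither did IL18 or BMP2.

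Adhesion molecules and surface receptors were counted in 17 of 18 cases, of which 13 fell and 1 rose, with a median of -0.68. SELE, E-selectin, the endothelial molecule on which leukocytes roll, had 0.183 CPM in DT cells, against 2.96 CPM in TNF cells (log2 fold change -3.95, FDR 2.79e-24 in the authors' deposited table), on 9 and 128 reads, and it was listed at 0 in vehicle cells. ICAM1, the integrin ligand that holds leukocytes on epithelium and endothelium, had 322 CPM in DT cells, against 646 CPM in TNF cells (log2 fold change -0.97, FDR 8.43e-20 in the authors' deposited table). Without TNF it stood at 1.69 CPM in dex cells, against 3.28 CPM in vehicle cells, so that it remained far above these levels with both agents. TNFRSF9, the receptor 4-1BB, had 6.74 CPM in DT cells, against 29.4 CPM in TNF cells (log2 fold change -2.13, FDR 8.71e-55 in the authors' deposited table). CD274, the checkpoint ligand PD-L1, had 1.69 CPM in DT cells, against 4.47 CPM in TNF cells (log2 fold change -1.42, FDR 9.71e-11 in the authors' deposited table). PLAUR, the urokinase receptor, had 45.1 CPM in DT cells, against 119 CPM in TNF cells (log2 fold change -1.39, FDR 3.52e-50 in the authors' deposited table). The gene that rose was F2RL1, the protease-activated receptor PAR2, with 120.4 CPM in DT cells, against 61.2 CPM in TNF cells (log2 fold change 0.97, FDR 2.98e-26 in the authors' deposited table). NINJ1, a membrane protein of cell adhesion, had 175 CPM in DT cells, against 174 CPM in TNF cells and was not called (log2 fold change 0.02, FDR 1 in the authors' deposited table), and neither were TLR2 and IL1R1.

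TNF over vehicle, a comparison that shares the TNF samples with the present one, raised 10 of the 11 chemokines, 14 of the 18 cytokines and 14 of the 17 adhesion genes, where it raised 11.3% of all genes counted.

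**Figure D1:**
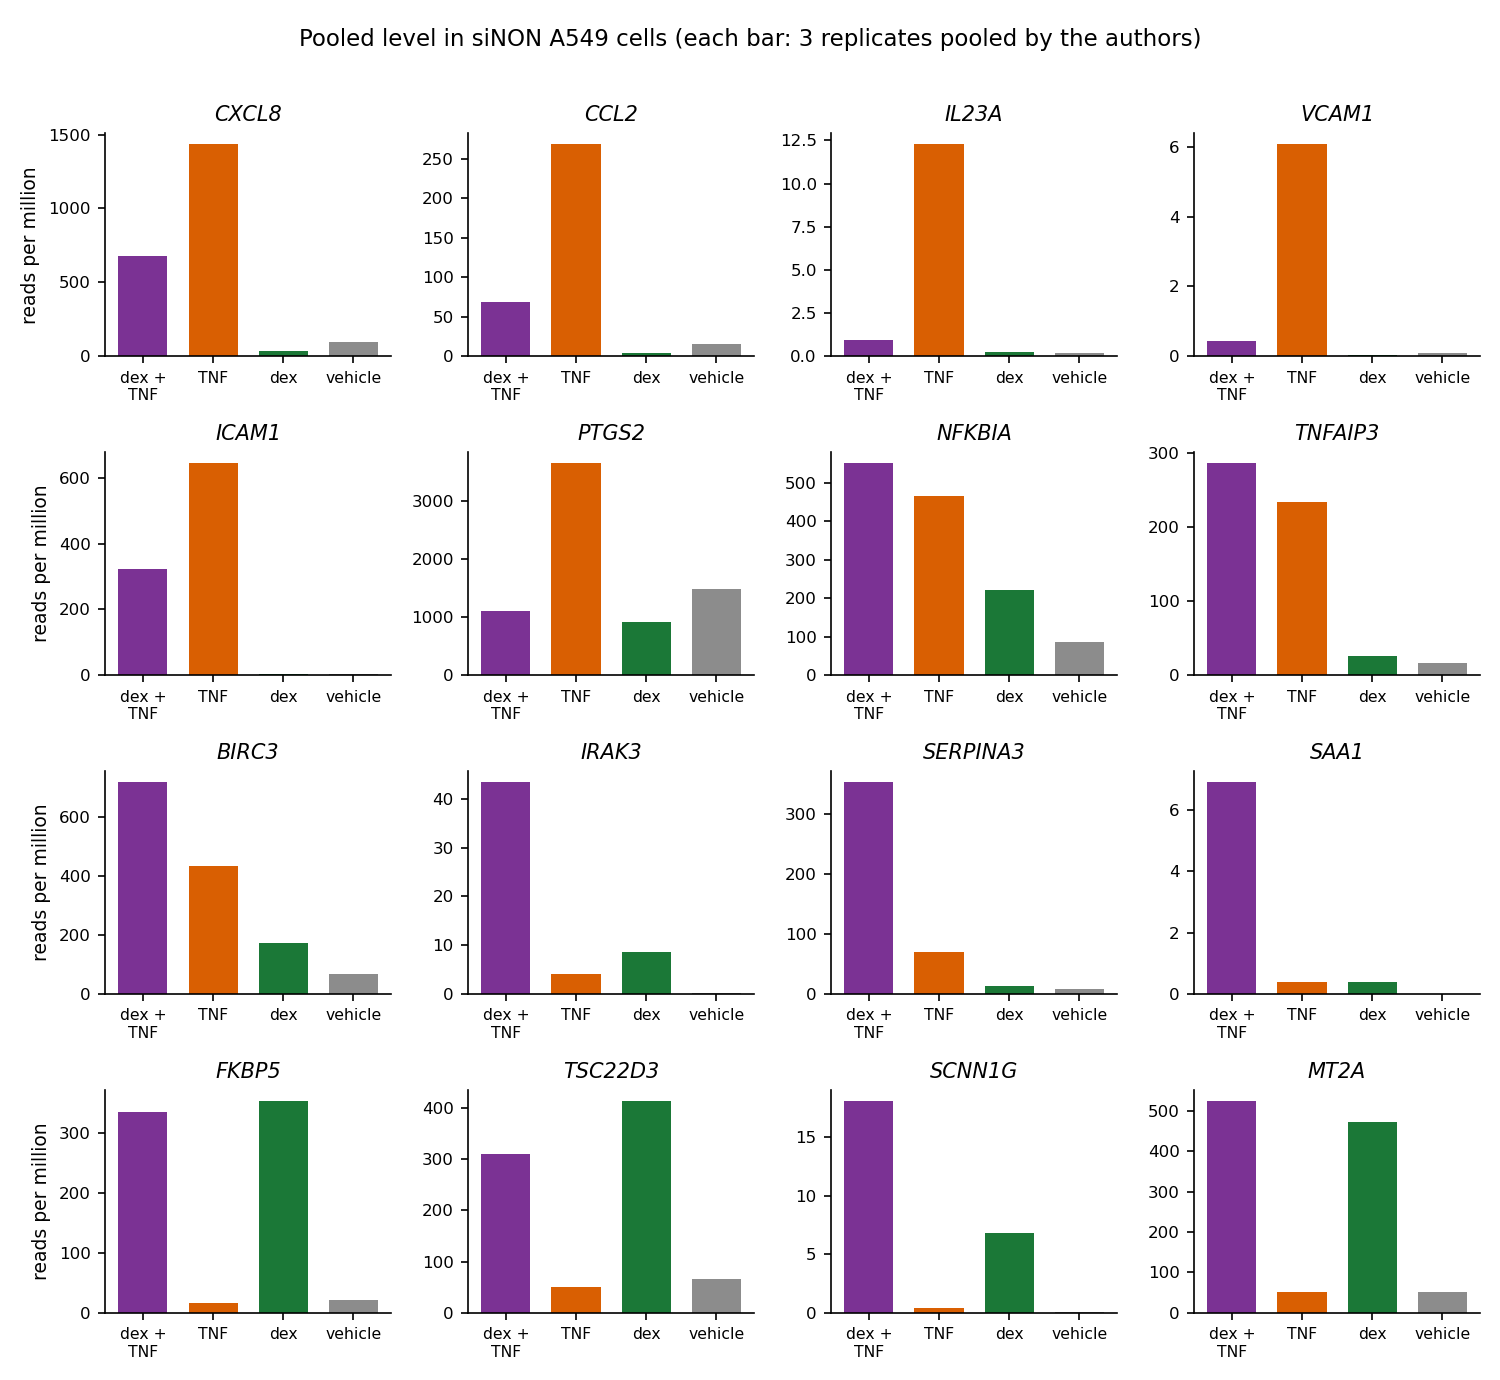
Pooled levels of 16 genes in CPM, 1 panel a gene, in siNON cells under dex plus TNF, TNF, dex and vehicle, with a linear axis from 0 in each panel and 1 bar for the 3 replicates that the authors pooled. CXCL8, CCL2, IL23A, VCAM1, ICAM1 and PTGS2 were lower under dex plus TNF than under TNF, BIRC3, IRAK3, SERPINA3 and SAA1 were highest under dex plus TNF, and FKBP5, TSC22D3 and MT2A were high in both groups that received dex.

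Interferon-response genes fell widely. Of 34 in the list 30 were counted, 21 fell and 1 rose, with a median of -0.71. The interferon genes themselves gave almost no reads, with at most 1 read of IFNB1 and of IFNL1 in either group. OAS2, an antiviral RNA-sensing synthetase, had 0.732 CPM in DT cells, against 6.09 CPM in TNF cells (log2 fold change -3.08, FDR 5.66e-19 in the authors' deposited table). MX1, an antiviral dynamin-like GTPase, had 3.32 CPM in DT cells, against 18.4 CPM in TNF cells (log2 fold change -2.47, FDR 3.51e-28 in the authors' deposited table). IFIT1, IFIT2 and IFIT3, which bind foreign RNA, fell by 2.12, 1.6 and 1.39 on the log2 scale in the authors' deposited table; IFIT3 was the highest, with 13.2 CPM in DT cells, against 34.5 CPM in TNF cells. DDX58, the RNA sensor RIG-I, had 25.6 CPM in DT cells, against 48.7 CPM in TNF cells (log2 fold change -0.93, FDR 7.60e-21 in the authors' deposited table), and the related sensor IFIH1 had 18.5 CPM in DT cells, against 35.4 CPM in TNF cells (log2 fold change -0.93, FDR 5.73e-17 in the authors' deposited table). The transcription factors of the pathway changed less. IRF1, which TNF also induces through NF-kB, had 119.9 CPM in DT cells, against 182 CPM in TNF cells (log2 fold change -0.59, FDR 7.57e-12 in the authors' deposited table). STAT2 and IRF9, parts of the factor that drives these genes, fell by 0.48 and 0.35 log2 units in the authors' deposited table. SOCS1, a suppressor of cytokine signalling, was the member that rose, with 2.0 CPM in DT cells, against 0.971 CPM in TNF cells (log2 fold change 1.07, FDR 0.00793 in the authors' deposited table).

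Antigen presentation genes, many of which interferon and TNF also raise, were mostly not called. Of 21 in the list 19 were counted, 5 fell and 1 rose, with a median of -0.10, where 8.29% of all genes counted fell and 10.4% rose. NLRC5, the coactivator of class I HLA genes, had 5.91 CPM in DT cells, against 10.3 CPM in TNF cells (log2 fold change -0.78, FDR 4.68e-04 in the authors' deposited table). TAP1, the peptide transporter, ran the other way with 208 CPM in DT cells, against 135 CPM in TNF cells (log2 fold change 0.62, FDR 1.38e-12 in the authors' deposited table). The beta-2 microglobulin gene B2M had 385 CPM in DT cells, against 438 CPM in TNF cells and was not called (log2 fold change -0.18, FDR 0.271 in the authors' deposited table). TAP1 is listed with 8 copies, and the HLA genes with 5 to 8.

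The NF-kB machinery gave both directions. All 28 listed subunits and regulators were counted, 12 fell and 7 rose, with a median of -0.24. Of the 5 subunits, NFKB1, NFKB2, REL and RELA fell by 0.69, 0.40, 0.63 and 0.47 log2 units in the authors' deposited table, with NFKB1 at 135 CPM in DT cells, against 220.2 CPM in TNF cells. RELB had 179 CPM in DT cells, against 211 CPM in TNF cells without being called (log2 fold change -0.22, FDR 0.101 in the authors' deposited table). NFKBIZ, a nuclear IkB protein that NF-kB needs at part of its secondary targets, had 27.7 CPM in DT cells, against 76.7 CPM in TNF cells (log2 fold change -1.44, FDR 2.87e-25 in the authors' deposited table), and it shares reads with NXPE3. TRAF1 and RIPK2, adaptors of receptor signalling, fell by 1.04 and 1.05 log2 units in the authors' deposited table.

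The 7 members that rose, NFKBIA, TNFAIP3, TNIP1, TNIP2, ZC3H12A, BIRC3 and IRAK3, are known as regulators that NF-kB or cytokine signalling runs into after it starts. NFKBIA encodes the IkB alpha protein that holds NF-kB in the cytoplasm. It had 551 CPM in DT cells, against 464 CPM in TNF cells (log2 fold change 0.26, FDR 0.02 in the authors' deposited table), and 222 CPM in dex cells, against 85.1 CPM in vehicle cells. TNFAIP3, the deubiquitinase A20 that ends TNF signalling, had 287 CPM in DT cells, against 235 CPM in TNF cells (log2 fold change 0.31, FDR 0.0129 in the authors' deposited table). Its partners TNIP1 and TNIP2 rose by 0.26 and 0.36 log2 units in the authors' deposited table. ZC3H12A, the ribonuclease regnase-1 that destroys cytokine mRNAs, had 158 CPM in DT cells, against 97 CPM in TNF cells (log2 fold change 0.70, FDR 1.11e-11 in the authors' deposited table). BIRC3, the ubiquitin ligase cIAP2, had 719 CPM in DT cells, against 433 CPM in TNF cells (log2 fold change 0.75, FDR 5.25e-07 in the authors' deposited table), and 173 CPM in dex cells, against 65.8 CPM in vehicle cells. IRAK3, a pseudokinase that blocks signalling of interleukin 1 and Toll-like receptors, was the extreme case with 43.5 CPM in DT cells, against 4.12 CPM in TNF cells (log2 fold change 3.40, FDR 1.55e-158 in the authors' deposited table). Without TNF, IRAK3 had 8.5 CPM in dex cells, against 0.196 CPM in vehicle cells, so it was highest where both agents met. Other regulators did not rise: CYLD and NFKBIE were not called, and NFKBIB fell by 0.28 log2 units in the authors' deposited table, sharing reads with SIRT2.

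Of 20 listed genes of TNF receptor signalling, all counted, 3 rose, 2 fell and 15 were not called, with a median of 0.02. The share called was 25%, against 18.7% over all genes counted, of which 10.4% rose and 8.29% fell. TNFRSF1A, the main TNF receptor, had 262 CPM in DT cells, against 211 CPM in TNF cells (log2 fold change 0.30, FDR 0.00269 in the authors' deposited table). TNFRSF1B, the other TNF receptor, had 4.69 CPM in DT cells, against 4.22 CPM in TNF cells (log2 fold change 0.14, FDR 0.981 in the authors' deposited table). CFLAR, which blocks caspase 8, had 253 CPM in DT cells, against 208 CPM in TNF cells (log2 fold change 0.28, FDR 0.00221 in the authors' deposited table). MAP3K8, the kinase TPL2 that links the pathway to ERK, was the member with the largest fall, with 28.6 CPM in DT cells, against 53 CPM in TNF cells (log2 fold change -0.87, FDR 5.78e-16 in the authors' deposited table). The adaptors TRADD, RIPK1 and the IKK kinases CHUK and IKBKB did not pass the threshold, within 0.17 of 0 on the log2 scale in the authors' deposited table.

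Promoter sequences from RefSeq (build GRCh38.p14) were set beside these values. They show that genes that fell and genes that rose can have the same kind of NF-kB letters near the start. The 5 genes shown were chosen after their values were seen, and all 5 hold such letters. Other genes had none in the stretch searched, such as IRAK3 and ZC3H12A, which rose, and IL23A and PTGS2, which fell. The windows searched ran from 250 bases before the annotated start to 50 after it. The motifs were GGNNNTTCC (NF-kB type), ACANNNTGT (glucocorticoid response element type) and TGANTCA (AP-1 type), each on both strands. The 250 bases before the start are shown for VCAM1, SELE and CXCL8, which fell, and for TNFAIP3 and SERPINA3, which rose. Capitals mark the motif matches, all of them of the NF-kB type except TGACTCA in CXCL8, which is of the AP-1 type. The stretches are chr1:100719492-100719741, + strand, for VCAM1; chr1:169734080-169734329, - strand, for SELE; chr4:73740319-73740568, + strand, for CXCL8; chr6:137867009-137867258, + strand, for TNFAIP3; and chr14:94612141-94612390, + strand, for SERPINA3.
VCAM1: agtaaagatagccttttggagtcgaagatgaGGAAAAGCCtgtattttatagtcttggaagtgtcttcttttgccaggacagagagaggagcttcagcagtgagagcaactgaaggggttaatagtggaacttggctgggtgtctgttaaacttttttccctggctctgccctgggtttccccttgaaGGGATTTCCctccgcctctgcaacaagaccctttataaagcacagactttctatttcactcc
SELE: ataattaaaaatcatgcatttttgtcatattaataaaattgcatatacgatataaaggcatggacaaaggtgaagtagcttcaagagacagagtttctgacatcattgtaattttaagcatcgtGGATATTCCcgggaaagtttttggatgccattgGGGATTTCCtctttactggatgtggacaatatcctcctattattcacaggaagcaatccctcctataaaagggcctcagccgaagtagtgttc
CXCL8: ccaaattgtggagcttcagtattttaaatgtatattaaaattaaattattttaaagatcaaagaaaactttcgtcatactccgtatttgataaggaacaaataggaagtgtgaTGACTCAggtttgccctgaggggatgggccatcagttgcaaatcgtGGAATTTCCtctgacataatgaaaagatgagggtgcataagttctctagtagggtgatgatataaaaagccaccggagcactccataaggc
TNFAIP3: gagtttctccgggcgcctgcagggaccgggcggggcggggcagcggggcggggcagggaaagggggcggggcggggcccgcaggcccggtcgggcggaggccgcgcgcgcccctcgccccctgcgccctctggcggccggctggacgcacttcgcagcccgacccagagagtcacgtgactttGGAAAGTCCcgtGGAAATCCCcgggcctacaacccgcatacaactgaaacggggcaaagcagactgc
SERPINA3: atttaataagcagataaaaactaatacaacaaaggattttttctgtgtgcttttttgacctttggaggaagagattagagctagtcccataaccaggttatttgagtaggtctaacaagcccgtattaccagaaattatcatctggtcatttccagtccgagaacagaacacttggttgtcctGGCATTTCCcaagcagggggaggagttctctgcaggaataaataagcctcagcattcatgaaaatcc

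Read from the annotated start, the NF-kB type match nearest to it began at base -62 in VCAM1, -93 in SELE, -91 in CXCL8, -55 in TNFAIP3 and -67 in SERPINA3. VCAM1 and SELE share the letters GGGATTTCC, and TNFAIP3 has the same letters on the other strand, printed as GGAAATCCC. In vehicle cells VCAM1 had 0.0776 CPM, SELE was listed at 0 and TNFAIP3 had 16 CPM. An NF-kB type match stood in 24.6% of the promoters of genes that fell by at least 1 (33 of 134 with a promoter in the table, of 208 genes). The share was 19.9% for genes that rose by at least 1 (50 of 251, of 387 genes), 23.2% for 10529 counted genes and 20.1% for all 27305 promoters. The AP-1 type letters stood in 17.2% of the promoters of genes that fell, 9.56% of those of genes that rose, 4.82% of those of counted genes and 7.76% of all promoters. The glucocorticoid response element type was in 2.24% of the promoters of genes that fell, 5.58% of those of genes that rose, 2.7% of those of counted genes and 5.45% of all promoters. A match is a description of letters and not a site of binding, and these windows hold no distant elements.

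Known glucocorticoid-induced regulators rose in most cases. Of 41 in the list 38 were counted, 29 rose and 3 fell, with a median of 1.04, and without TNF 30 of the same 38 rose and 1 fell, with a median of 1.35, where dex over vehicle raised 6.86% and lowered 4.92% of all genes counted. TSC22D3, the leucine zipper protein GILZ that binds NF-kB and AP-1, had 310.3 CPM in DT cells, against 51.2 CPM in TNF cells (log2 fold change 2.61, FDR 5.62e-115 in the authors' deposited table). DUSP1, the phosphatase that turns off p38 and JNK kinases, had 699 CPM in DT cells, against 171 CPM in TNF cells (log2 fold change 2.04, FDR 4.49e-85 in the authors' deposited table). ERRFI1, an inhibitor of the EGF receptor, had 625 CPM in DT cells, against 131 CPM in TNF cells (log2 fold change 2.27, FDR 2.82e-90 in the authors' deposited table). These 3 genes stood in dex cells at 414, 917 and 789.5 CPM, against 66.6, 202 and 159.7 CPM in vehicle cells. KLF9, a Kruppel-like repressor, had 26 CPM in DT cells, against 3.58 CPM in TNF cells (log2 fold change 2.87, FDR 1.23e-66 in the authors' deposited table). ZFP36, tristetraprolin, which marks cytokine mRNAs for decay, had 362 CPM in DT cells, against 230.4 CPM in TNF cells (log2 fold change 0.66, FDR 1.61e-06 in the authors' deposited table). ANGPTL4, a lipoprotein lipase inhibitor, had 71.8 CPM in DT cells, against 6.04 CPM in TNF cells (log2 fold change 3.55, FDR 2.43e-167 in the authors' deposited table). ZBTB16, a zinc finger gene known for its dependence on glucocorticoids, had 0.955 CPM in DT cells and was listed at 0 in TNF cells. The members RASD1, EDN1 and PHLDA1 fell by 0.63, 0.36 and 0.31 log2 units in the authors' deposited table, and ANXA1, annexin 1, often named as a mediator of glucocorticoids, had 1321 CPM in DT cells, against 1250.3 CPM in TNF cells and was not called (log2 fold change 0.09, FDR 0.769 in the authors' deposited table).

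Genes of sodium and water transport, which glucocorticoids raise in the fetal and adult lung, rose in 7 of the 10 counted cases (13 in the list) and fell in 2, with a median of 1.09. All 3 subunits of the epithelial sodium channel rose. SCNN1A had 18.3 CPM in DT cells, against 5.58 CPM in TNF cells (log2 fold change 1.69, FDR 5.52e-24 in the authors' deposited table), sharing reads with LTBR, and SCNN1B had 11.2 CPM in DT cells, against 1.66 CPM in TNF cells (log2 fold change 2.72, FDR 2.28e-41 in the authors' deposited table). SGK1, the kinase that keeps the channel at the membrane, had 47.3 CPM in DT cells, against 20.5 CPM in TNF cells (log2 fold change 1.21, FDR 5.09e-37 in the authors' deposited table). AQP3, a channel for water and glycerol, rose by 0.82 log2 units in the authors' deposited table. ATP1B1, the beta subunit of the sodium pump, had 295 CPM in DT cells, against 371 CPM in TNF cells (log2 fold change -0.34, FDR 0.00102 in the authors' deposited table). NEDD4L, the ubiquitin ligase that removes the channel, fell by 0.32 log2 units in the authors' deposited table.

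Metallothioneins, small proteins that bind zinc and copper, rose in 4 of the 5 members counted of 12 in the list, with a median of 1.97, and the other counted member was the zinc transporter SLC30A1. MT2A had 526 CPM in DT cells, against 50.6 CPM in TNF cells (log2 fold change 3.38, FDR 4.24e-234 in the authors' deposited table). MT1X had 60.3 CPM in DT cells, against 6.17 CPM in TNF cells (log2 fold change 3.27, FDR 2.08e-113 in the authors' deposited table), and MT1F and MT1A rose by 1.90 and 1.97 log2 units in the authors' deposited table. The metallothionein genes are near-identical copies in 1 cluster on chromosome 16, so reads may be shared among them. Clock genes moved both ways, and of 18 counted of 19, 4 rose and 3 fell. PER1 had 238 CPM in DT cells, against 90.8 CPM in TNF cells (log2 fold change 1.39, FDR 1.18e-49 in the authors' deposited table), and PER2, CRY2 and CIART, repressors of the same loop, rose by 1.25, 1.04 and 2.00 log2 units in the authors' deposited table. Other repressors of the loop, BHLHE40, BHLHE41 and NR1D1 (which shares reads with THRA), fell by 0.65, 2.21 and 0.80 log2 units in the authors' deposited table, while the activators CLOCK and ARNTL were not called.

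Acute phase proteins, which epithelium and liver secrete in inflammation, were counted in 15 of 22 cases, and 6 rose and 1 fell, with a median of 0.26. SERPINA3, the protease inhibitor antichymotrypsin, had 353 CPM in DT cells, against 69 CPM in TNF cells (log2 fold change 2.37, FDR 6.23e-137 in the authors' deposited table). SAA1, serum amyloid A, had 6.92 CPM in DT cells, against 0.394 CPM in TNF cells (log2 fold change 4.11, FDR 4.27e-56 in the authors' deposited table), and SAA2 had 7.11 CPM in DT cells, against 0.898 CPM in TNF cells (log2 fold change 2.97, FDR 3.18e-41 in the authors' deposited table), sharing reads with SAA2-SAA4. Without TNF the same genes were low with or without dex. SERPINA3 had 13.9 CPM in dex cells, against 8.17 CPM in vehicle cells, and SAA1 had 0.386 CPM in dex cells and was listed at 0 in vehicle cells. TF, transferrin, had 7.82 CPM in DT cells, against 3.68 CPM in TNF cells (log2 fold change 1.08, FDR 4.59e-06 in the authors' deposited table). FGA, a fibrinogen chain, rose by 0.45 log2 units in the authors' deposited table, while the other chains FGB and FGG were not called (-0.02 and -0.09). The light chain of ferritin, FTL, fell by 0.24 log2 units in the authors' deposited table. The complement list includes the C1q-related gene C1QTNF1. Of its 18 members 14 were counted, 2 rose and none fell, where 10.4% of all genes counted rose and 8.29% fell. C3, the central component, had 395 CPM in DT cells, against 178 CPM in TNF cells (log2 fold change 1.14, FDR 8.43e-20 in the authors' deposited table), and 98.2 CPM in dex cells, against 82 CPM in vehicle cells. C1QTNF1, of the C1q and TNF-related family, had 204 CPM in DT cells, against 156 CPM in TNF cells (log2 fold change 0.40, FDR 2.37e-04 in the authors' deposited table). CFB, complement factor B, had 67 CPM in DT cells, against 64.3 CPM in TNF cells and was not called (log2 fold change 0.05, FDR 1 in the authors' deposited table), and it is listed in 7 copies.

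AP-1 and immediate early genes, a second arm of TNF signalling, moved both ways: of 15 counted of 18, 6 fell and 4 rose, with a median of -0.32. JUN had 134 CPM in DT cells, against 249 CPM in TNF cells (log2 fold change -0.87, FDR 3.12e-09 in the authors' deposited table). FOSL1 had 48.1 CPM in DT cells, against 96.5 CPM in TNF cells (log2 fold change -0.98, FDR 1.09e-19 in the authors' deposited table), and IER3, a stress-response gene listed in 6 copies, had 84.1 CPM in DT cells, against 321 CPM in TNF cells (log2 fold change -1.92, FDR 5.50e-115 in the authors' deposited table). FOS, the other classical AP-1 partner, went the opposite way with 95.7 CPM in DT cells, against 33.9 CPM in TNF cells (log2 fold change 1.51, FDR 3.59e-25 in the authors' deposited table), and it stood at 78.7 CPM in vehicle cells. KLF4, a Kruppel-like factor of epithelial differentiation, had 115 CPM in DT cells, against 37.6 CPM in TNF cells (log2 fold change 1.64, FDR 5.77e-41 in the authors' deposited table). The phosphatases and decay factors that limit these pathways also split, with 7 rises and 6 falls among 16 counted of 17. Beside DUSP1 and ZFP36, DUSP6, an ERK phosphatase, rose by 0.68 and ZFP36L2 by 0.65 log2 units in the authors' deposited table. DUSP10, DUSP5 and DUSP4 fell by 1.12, 0.60 and 0.54 log2 units in the authors' deposited table.

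In the prostaglandin pathway 9 of 14 genes were counted, 3 fell and 2 rose, where 8.29% of all genes counted fell and 10.4% rose. The 3 that fell take part in making prostaglandins, and the 2 that rose break them down or receive them. This split covers the called genes only. The other 4, PTGES2, PTGES3, PTGR1 and PTGER2, were not called, with log2 fold changes of 0.04, -0.06, 0.10 and -0.09 in the authors' deposited table. PTGS2, the inducible cyclooxygenase COX-2, had 1103 CPM in DT cells, against 3656 CPM in TNF cells (log2 fold change -1.68, FDR 4.82e-15 in the authors' deposited table). PLA2G4A, the phospholipase that supplies its substrate, had 216 CPM in DT cells, against 355 CPM in TNF cells (log2 fold change -0.71, FDR 1.02e-13 in the authors' deposited table), and the synthase PTGES fell by 0.29 log2 units in the authors' deposited table. HPGD, the enzyme that breaks prostaglandins down, had 319.8 CPM in DT cells, against 169.5 CPM in TNF cells (log2 fold change 0.92, FDR 1.42e-18 in the authors' deposited table), and the receptor PTGER4 had 10.2 CPM in DT cells, against 3.22 CPM in TNF cells (log2 fold change 1.66, FDR 3.53e-24 in the authors' deposited table). PTGS2 was also high without TNF, at 915 CPM in dex cells, against 1483 CPM in vehicle cells.

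Genes of coagulation and fibrinolysis were counted in 14 of 15 cases, with 5 falls and 3 rises, where 8.29% of all genes counted fell and 10.4% rose. PLAU, urokinase, which activates plasminogen, had 178 CPM in DT cells, against 616 CPM in TNF cells (log2 fold change -1.75, FDR 9.96e-61 in the authors' deposited table), and 74.9 CPM in dex cells, against 109 CPM in vehicle cells. SERPINE2 and TFPI2, protease inhibitors, and F3, tissue factor, fell by 1.0, 0.83 and 0.68 log2 units in the authors' deposited table. THBD, thrombomodulin, an anticoagulant receptor, had 82.7 CPM in DT cells, against 42.8 CPM in TNF cells (log2 fold change 0.95, FDR 3.43e-28 in the authors' deposited table). Matrix proteases were mostly low, and of 9 counted of 18, 2 fell and 1 rose, or 33.3% called, against 18.7% of all genes counted. MMP7 had 79.8 CPM in DT cells, against 111 CPM in TNF cells (log2 fold change -0.46, FDR 1.06e-04 in the authors' deposited table), and ADAM17, the sheddase that releases TNF and its receptors, fell by 0.33 log2 units in the authors' deposited table. Of genes of reactive oxygen and nitric oxide, 12 of 16 were counted, 5 fell and 1 rose. HMOX1, heme oxygenase, had 62.1 CPM in DT cells, against 139 CPM in TNF cells (log2 fold change -1.18, FDR 2.88e-41 in the authors' deposited table), and TXNRD1, thioredoxin reductase, had 1388 CPM in DT cells, against 2788 CPM in TNF cells (log2 fold change -1.0, FDR 5.94e-27 in the authors' deposited table). SOD2, the mitochondrial superoxide dismutase that NF-kB induces, had 2294 CPM in DT cells, against 2572 CPM in TNF cells and was not called (log2 fold change -0.16, FDR 0.397 in the authors' deposited table). GCH1, which makes the cofactor of nitric oxide synthases, was the member that rose, by 0.46 log2 units in the authors' deposited table.

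Of 27 genes of apoptosis and survival, all counted, 6 rose and 6 fell, or 44.4% called, against 18.7% of all genes counted. BCL2A1, a survival protein of the BCL2 family, had 7.77 CPM in DT cells, against 37.3 CPM in TNF cells (log2 fold change -2.27, FDR 1.21e-63 in the authors' deposited table), and the death activator BBC3, also called PUMA, had 27.4 CPM in DT cells, against 65.1 CPM in TNF cells (log2 fold change -1.21, FDR 1.09e-14 in the authors' deposited table). MCL1, another survival protein, had 677 CPM in DT cells, against 452 CPM in TNF cells (log2 fold change 0.60, FDR 2.94e-07 in the authors' deposited table). TNFRSF10B, a receptor of the death ligand TRAIL, had 362 CPM in DT cells, against 587 CPM in TNF cells (log2 fold change -0.69, FDR 1.69e-17 in the authors' deposited table) and shares reads with RHOBTB2. Of the genes named here, 1 survival gene fell and another rose. Other called members of the list are not named, so this is no balance of the list. Junction and keratin genes were counted in 19 cases (22 in the list, 21 in the table), with 9 rises and 5 falls. PKP2, a desmosomal plakophilin, had 60.4 CPM in DT cells, against 13.2 CPM in TNF cells (log2 fold change 2.20, FDR 1.85e-98 in the authors' deposited table). KRT7 had 1791 CPM in DT cells, against 1119 CPM in TNF cells (log2 fold change 0.68, FDR 3.72e-17 in the authors' deposited table), and the desmosome protein DSP rose by 0.71 log2 units in the authors' deposited table. CLDN1 and CLDN2, claudins of the tight junction, fell by 0.91 and 0.93 log2 units in the authors' deposited table. SFTPD, surfactant protein D, a lectin of innate defence, was among the lung markers that rose, with 2.94 CPM in DT cells, against 0.273 CPM in TNF cells (log2 fold change 3.33, FDR 3.25e-17 in the authors' deposited table), on 144 and 12 reads, while dex cells had 0.477 CPM and vehicle cells 0.33 CPM.

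Genes of growth and of sterol synthesis had medians near 0, where 18.7% of all genes counted were called. Of 26 cell cycle genes, all counted, 1 fell and none rose, with a median of -0.09. PCNA, the clamp of DNA polymerase, was the one called, at 236 CPM in DT cells, against 283 CPM in TNF cells (log2 fold change -0.26, FDR 0.0128 in the authors' deposited table). Of 24 cholesterol synthesis genes, all counted, 6 fell and 1 rose, with a median of -0.03. INSIG1, the sterol sensor, had 270.4 CPM in DT cells, against 458 CPM in TNF cells (log2 fold change -0.75, FDR 3.93e-07 in the authors' deposited table). Among 18 receptors and cofactors of steroid response, all counted, 3 rose and 2 fell. NR3C1 had 140.4 CPM in DT cells, against 154 CPM in TNF cells and was not called (log2 fold change -0.14, FDR 0.461 in the authors' deposited table). IRF2BP2 had 134 CPM in DT cells, against 138 CPM in TNF cells (log2 fold change -0.03, FDR 1 in the authors' deposited table). HSD11B1 and HSD11B2, which activate and inactivate natural glucocorticoids, both rose. HSD11B1 had 3.51 CPM in DT cells, against 1.32 CPM in TNF cells (log2 fold change 1.40, FDR 2.36e-07 in the authors' deposited table), and HSD11B2 had 4.39 CPM in DT cells, against 1.57 CPM in TNF cells (log2 fold change 1.44, FDR 5.32e-08 in the authors' deposited table).

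**Figure D2:**
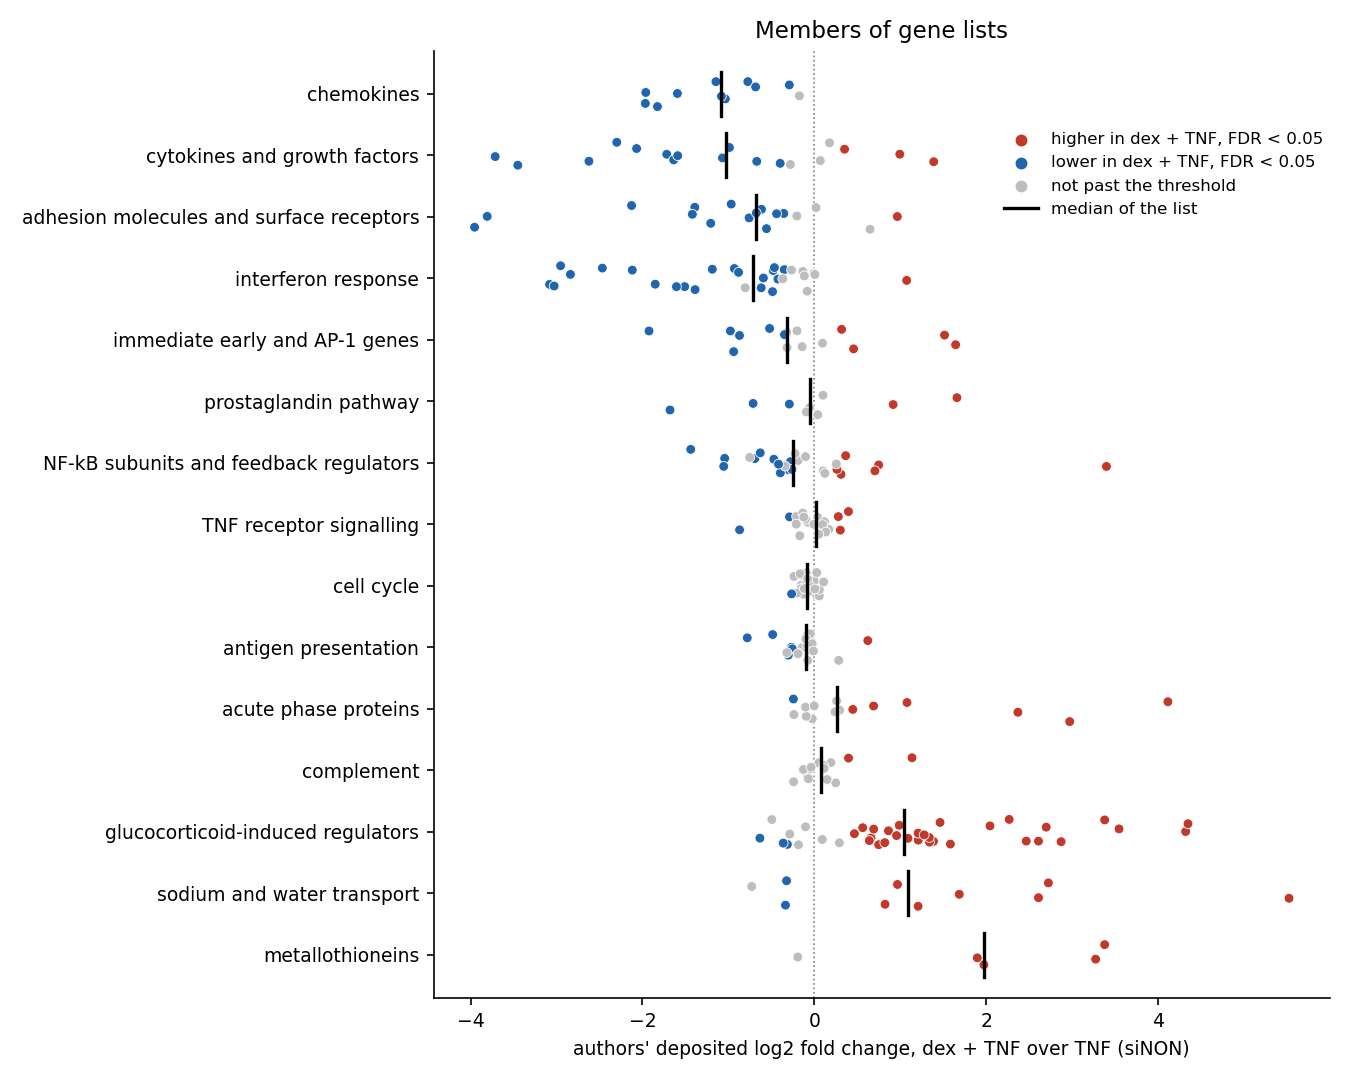
Authors' deposited log2 fold change of dex plus TNF over TNF in siNON cells for the counted members of 15 gene lists, 1 point a gene, red where higher and blue where lower at an FDR under 0.05, grey where not past it, with a black line at the median of each list. Chemokines, cytokines, adhesion molecules and interferon-response genes lie mainly left of 0, with medians of -1.08, -1.03, -0.68 and -0.71, and glucocorticoid-induced regulators, sodium and water transport genes and metallothioneins lie mainly right of it, with medians of 1.04, 1.09 and 1.97.

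Which genes dex changed was next set against how the genes responded in samples outside the comparison. Genes raised by TNF were taken from the siIRF2BP2 cells (TNF over vehicle, at least 1 on the log2 scale, FDR under 0.05 in the authors' deposited table), because the siNON TNF samples are part of the comparison itself. Of these 682 genes, dex added to TNF lowered 289 (42.4%) and raised 97 (14.2%), with a median of -0.28, and 296 were not called. Genes lowered by TNF leaned the other way, since of 577 dex raised 127 (22%) and lowered 31 (5.37%), with a median of 0.21. Over all genes counted the shares were 10.4% and 8.29%. In the siIRF2BP2 cells, TNF raised 4.7% of the genes counted by at least 1 and lowered 3.97%.

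Splitting the TNF-raised genes by dex alone separated them further. Dex alone here means dex over vehicle in siNON cells, which shares no sample with the comparison. Of 47 TNF-raised genes that dex alone raised by at least 1, dex added to TNF raised 34 (72.3%) and lowered 2, with a median of 0.90. Of 33 that dex alone lowered by at least 1, it lowered 31 (93.9%) and raised none, with a median of -1.59. Of 488 that were not called for dex alone, it lowered 197 (40.4%) and raised 42 (8.61%), with a median of -0.27. TNF-raised genes that were called for dex alone with a change under 1 are in none of these classes. BIRC3 belonged to the first of these classes, and CCL2, CXCL8 and CXCL1 to the second. IL23A and C3 belonged to the third, and within it IL23A fell and C3 rose. IL23A stood at 0.211 CPM in dex cells and 0.176 CPM in vehicle cells, on 12 and 10 reads, so a fall by dex alone could hardly be seen at this depth. The same limit may hold for other members of this class with few reads in the absence of TNF. A gene not called there may still respond to dex alone.

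**Figure D3:**
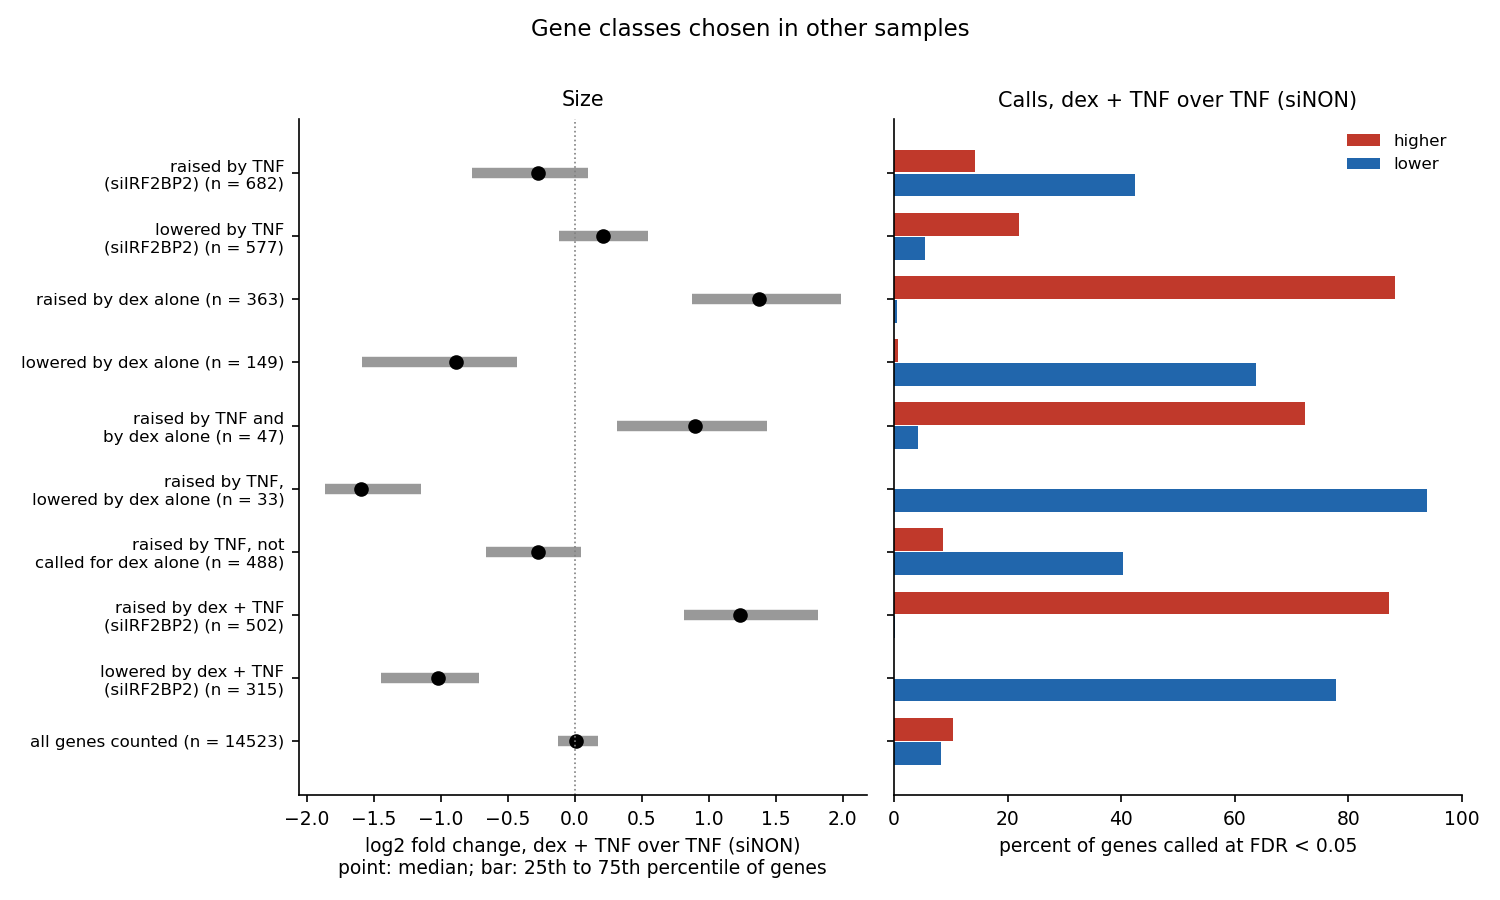
Response to dex added to TNF in siNON cells of gene classes chosen in other samples, with the median and the range from the 25th to the 75th percentile of the log2 fold change at left, and the percent of genes called higher (red) and lower (blue) at right. Genes raised by TNF and by dex alone lie right of 0 (median 0.90), those raised by TNF and lowered by dex alone lie left of it (median -1.59), and the median over all 14523 genes is 0.01.

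Most genes that dex alone raised were also higher when TNF was present. Of 363 genes that dex alone raised by at least 1 (2.5% of those counted), dex added to TNF raised 320 (88.2%) and lowered 2, with a median of 1.37. Of 149 that dex alone lowered by at least 1 (1.03%), it lowered 95 (63.8%) and raised 1, with a median of -0.89. Read from the other side, the 387 genes that rose by at least 1 with TNF had a median of 1.53 there and 1.24 with dex alone, where 297 were called higher and none lower. The 208 genes that fell by at least 1 with TNF had a median of -1.36 there and -0.75 with dex alone, where 119 were called lower and none higher. Since these genes were chosen by their values with TNF, the 2 medians are descriptions and were not compared. Across 11313 genes with a mean of at least 5 CPM over the siNON columns, Pearson's r between the 2 responses was 0.767 and Spearman's rho 0.472, as a description over genes, which are not replicates.

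To find genes whose answer to dex differed with TNF, the difference of the 2 responses was taken on log2 of the pooled FPKM plus 0.1 for 2613 genes called in either. It was at least 1 in 24 genes and at most -1 in 22, with a median of -0.01, and with 1 pooled value a group this difference has no replicate check. On the low side, LTB, OLR1, TNFRSF9 and IFIT1 were called lower with TNF and were not called without it, where all 4 had at most 3.09 CPM. The lipid receptor OLR1 had 3.56 CPM in DT cells, against 19.1 CPM in TNF cells, while it had 0.194 CPM in dex cells, against 0.264 CPM in vehicle cells. IFIT1 had 3.37 CPM in DT cells, against 14.3 CPM in TNF cells, and 3.09 CPM in dex cells, against 2.37 CPM in vehicle cells. RHCG, an ammonium transporter, was different. It rose by 0.96 log2 units (FDR 5.64e-08) with TNF and by 2.98 (FDR 2.52e-104) without it in the authors' deposited table, with 405 CPM in DT cells, against 218 CPM in TNF cells, and 179 CPM in dex cells, against 23.2 CPM in vehicle cells. NPTX1, a neuronal pentraxin, had 21.1 CPM in DT cells, against 31.7 CPM in TNF cells (log2 fold change -0.57, FDR 1.61e-07 in the authors' deposited table) and 25.1 CPM in dex cells, against 11 CPM in vehicle cells (log2 fold change 1.19, FDR 2.87e-11 in the authors' deposited table), so that it was called in opposite directions. C11orf96 was called without TNF (log2 fold change 1.92, FDR 7.76e-10 in the authors' deposited table, where the value with TNF, not called, is -0.13, FDR 1). STAC2, an adaptor of muscle calcium channels, was called higher in both settings, and had 5.06 CPM in DT cells, against 0.366 CPM in TNF cells, and 20.9 CPM in dex cells, against 0.641 CPM in vehicle cells.

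On the high side, SERPINA3 rose by 2.37 log2 units with TNF and by 0.82 without it (FDR 6.77e-05) in the authors' deposited table. ADAMTS15, a matrix protease, rose by 3.47 log2 units with TNF and 1.19 without it in the authors' deposited table, and its level in TNF cells, 1.58 CPM, was below the 6.31 CPM of vehicle cells. CA9, the carbonic anhydrase known from hypoxia, had 60.0 CPM in DT cells, against 24.7 CPM in TNF cells (log2 fold change 1.22, FDR 1.18e-06 in the authors' deposited table), while it had 70.1 CPM in dex cells, against 101 CPM in vehicle cells. CYP1B1, a cytochrome P450 that metabolises estrogens, had 40.8 CPM in DT cells, against 24 CPM in TNF cells (log2 fold change 0.75, FDR 2.52e-11 in the authors' deposited table), while it had 47.3 CPM in dex cells, against 94.6 CPM in vehicle cells (log2 fold change -0.94, FDR 2.18e-15 in the authors' deposited table), again called in opposite directions. EGLN3, an oxygen-sensing hydroxylase, had 6.07 CPM in DT cells, against 7.74 CPM in TNF cells, while it had 5.35 CPM in dex cells, against 23.4 CPM in vehicle cells, and it was called lower without TNF (log2 fold change -1.87, FDR 1.40e-08 in the authors' deposited table). For genes with long spans and few reads the difference depends on the scale. IRAK3 had a difference of 1.07 on log2 of FPKM plus 0.1, and -2.09 as the difference of the 2 values in the authors' deposited table, where its dex response without TNF (5.49) was set against 11 vehicle reads.

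**Figure D4:**
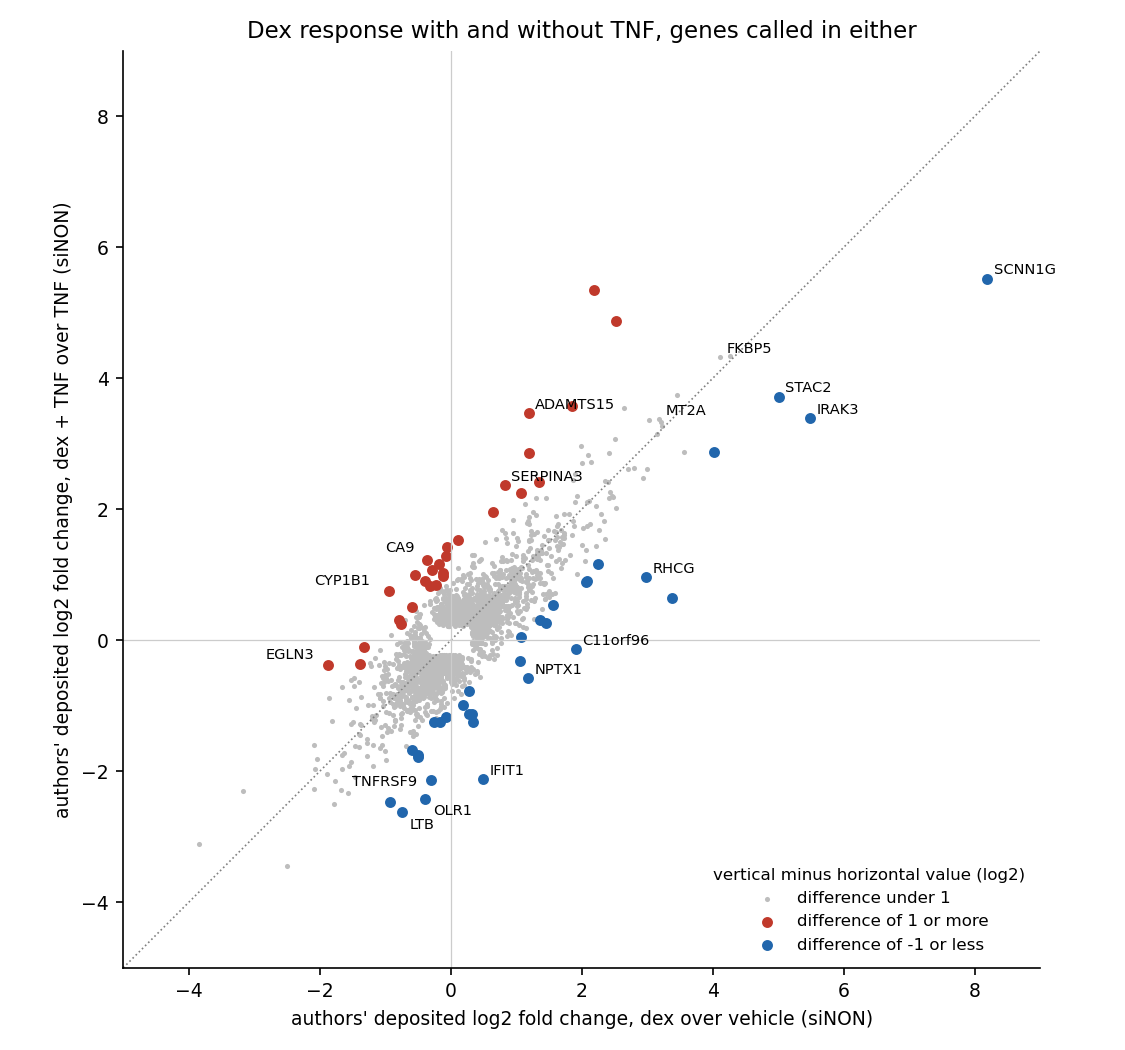
Authors' deposited log2 fold change of dex plus TNF over TNF (vertical) against dex over vehicle (horizontal), both in siNON cells, for 2613 genes called in either comparison, 1 point a gene, with equal values on the dotted line. Red points (28) are higher and blue points (32) lower by at least 1 with TNF on this scale, FKBP5 and MT2A lie close to the line, and LTB, OLR1 and TNFRSF9 lie far below it.

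In the cells with IRF2BP2 knockdown, which share no sample with the siNON comparison, dex added to TNF raised 14.8% and lowered 12.6% of the genes counted. Of the 387 genes that rose by at least 1 in siNON cells, 345 were called higher there and none lower, with a median of 1.70. Of the 208 that fell by at least 1, 185 were called lower and 1 higher, with a median of -1.41. Read from the knockdown, 438 of the 502 genes that rose by at least 1 there (3.46% of those counted) rose in siNON cells (87.3%), and 245 of the 315 that fell by at least 1 there (2.17%) fell in siNON cells (77.8%). CXCL8 and CCL2 fell there as well. CXCL8 had 279 CPM in siIRF2BP2 cells with DT, against 561 CPM with TNF (log2 fold change -0.98, FDR 5.13e-28 in the authors' deposited table), and CCL2 had 129 CPM with DT, against 482 CPM with TNF (log2 fold change -1.86, FDR 1.55e-109 in the authors' deposited table). ICAM1 had 539 CPM in siIRF2BP2 cells with DT, against 659.8 CPM with TNF (log2 fold change -0.26, FDR 0.00258 in the authors' deposited table). TSC22D3 rose by 4.39 log2 units there and 2.61 in siNON cells in the authors' deposited table, and FKBP5 by 4.31 and 4.32. Whether single genes differ between the 2 knockdown states was not tested. Across the same 11313 genes Pearson's r between the siNON and the siIRF2BP2 responses was 0.878 and Spearman's rho 0.725, as a description over genes.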

How the data were processed

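PolyA RNA of 24 A549 samples was sequenced, per the labels' protocols, with 3 samples in each of 8 groups. The submitters' processing notes name Trimmomatic 0.33, Bowtie2, TopHat2, HOMER and edgeR on hg19, without saying which step each served, and whether strand was used in counting is not given in the sources used here. Per the file headers, the authors gave FPKM for each transcript in 1 column a group, so the 3 replicates are pooled and values per replicate were not analysed here. The log2 fold changes are deposited by the authors for each comparison, and their direction, second named group over first, was checked against the pooled columns (r = 0.998). The p-values and FDR are the authors' too, and the deposited FDR equals a Benjamini-Hochberg adjustment over 48118 transcripts within 7.59e-07.

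The listed length was the genomic span in 98.6% of transcripts, so FPKM is per kb of span and introns count. FPKM times length gave whole reads (within 0.01) for all the low values of short transcripts that were checked. For each symbol the transcript with the most reads over the 8 columns was kept, calls were counted at a mean of at least 0.5 CPM, and a large change was at least 1 on the log2 scale. The text names the 15 largest rises and falls with at least 5 CPM in the higher group, leaving out non-coding names, up to 6 members a list with the smallest FDR and its defining members, and the 8 largest differences of the dex responses each way. Other members were chosen after their values were seen, and some genes that the rule names are not reported here. The comparison and the 26 gene lists were chosen with earlier results of these data known. No test was run on the pooled columns. Python 3.11.15, pandas 2.3.3 and numpy 2.4.6 were used. The counting of calls, the Benjamini-Hochberg adjustment and the choice of transcripts were tested on simulated or made-up data, and the other steps were not. Alternatives were other filters, thresholds, transcripts and pseudocounts.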

Additional observations from a re-analysis of the deposited data

How the results depend on the processing

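No paired analysis was possible because the deposited columns pool the 3 replicates of each group; for the same reason leaving out each replicate was not run. With a mean of at least 5 CPM, 215 genes rose by at least 1 (387 as reported) and 119 fell (208). An FDR of 0.01, no filter, adjustment over the genes counted and the longest transcript each left these counts within 1.5 times. With no filter the median of junctions and keratins was 0.33 (-0.05 as reported) and that of A549 and lung markers 0.0162 (-0.03). Genes whose dex response was higher by at least 1 with TNF numbered 24, but 6 with a pseudocount of 1 and 37 on pooled CPM plus 0.5, a setting chosen after the data were seen. Those lower by at least 1 numbered 22, and 12 with a pseudocount of 1. Of 151 named genes, none that was called changed direction on 4 other scales. These scales are ratios of the same pooled columns, so the direction was all but fixed in advance and this is no check of it. Genes not called were not checked for direction. With a pseudocount of 1, 43 of the 151 moved by at least 1. Depth limits what can be said of genes with few reads, and counting error does not cover the spread between cultures.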

Other observations

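Among 20 counted genes of hypoxia and glycolysis, a list chosen after its values were seen, dex added to TNF raised 9 and lowered 4, with a median log2 fold change of 0.19, and dex alone raised 2 and lowered 4, with a median of -0.11. Over the 14523 genes counted, dex added to TNF raised 1508 and lowered 1204, and dex alone raised 996 and lowered 714. TNF over vehicle, which shares the TNF samples, raised none of them and lowered 11, with a median of -0.43, where it raised 1636 and lowered 1536 of all genes counted. NDRG1, a stress-induced gene, had 338 CPM in DT cells, against 119.8 CPM in TNF cells, and 404 CPM in dex cells, against 319 CPM in vehicle cells. VEGFA, the vascular growth factor, had 57.7 CPM in DT cells, against 28 CPM in TNF cells. LDHA, which makes lactate, had 2239 CPM in DT cells, against 1541 CPM in TNF cells, and ALDOC, an aldolase, had 29.6 CPM in DT cells, against 15.5 CPM in TNF cells, and 32.1 CPM in dex cells, against 47.9 CPM in vehicle cells. The glucose transporter SLC2A1 and the glycolytic regulator PFKFB3 were among those lowered. SLC2A1 had 88.6 CPM in DT cells, against 127 CPM in TNF cells, and PFKFB3 had 94.8 CPM in DT cells, against 153 CPM in TNF cells.

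Of 17 counted ligands, receptors and inhibitors of TGF-beta and BMP signalling, likewise chosen after their values were seen, 5 rose and 7 fell with dex added to TNF, with a median of -0.11. The activin and myostatin inhibitors went opposite ways. FSTL3, follistatin-like 3, had 590.0 CPM in DT cells, against 125 CPM in TNF cells, and 290.3 CPM in dex cells, against 142 CPM in vehicle cells. FST, follistatin, had 2.04 CPM in DT cells, against 11.9 CPM in TNF cells. The ligand TGFB2 had 14.5 CPM in DT cells, against 37.8 CPM in TNF cells, and the receptor TGFBR1 had 174 CPM in DT cells, against 78 CPM in TNF cells. The BMP-responsive repressors of differentiation ID1 and ID3 also parted. ID1 had 144 CPM in DT cells, against 41.3 CPM in TNF cells, and 223 CPM in dex cells, against 105 CPM in vehicle cells, and ID3 had 40.4 CPM in DT cells, against 79.1 CPM in TNF cells. All of the genes named in these paragraphs passed an FDR of 0.05 for dex added to TNF in the authors' deposited table.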
